A study of Homo sapiens with 4 samples.

Results

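The genes described here are long noncoding RNAs of 2 kinds: the snoRNA host genes GAS5, SNHG1, SNHG5, SNHG7, SNHG8, SNHG12 and SNHG15, and the nuclear RNAs NEAT1 and MALAT1. The 9 genes were chosen by symbol in the annotation of the array, and a probe set was to count for a gene only if it named no other gene. By that rule 2 of the 9 genes had a probe set, out of 19775 genes in all: GAS5 with 1 probe set and MALAT1 with 12. The other 7 had none, because each of their probe sets also lists small RNAs. There were 22 such shared probe sets, 4 of them for GAS5, and every other gene they list is a snoRNA, or MIR612 for NEAT1, that lies inside the span of the same host gene in the RefSeq gene table (GRCh38.p14). The shared probe sets are reported by their identifiers, as signal from the locus, since the annotation does not settle which RNA they measured.

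RNA came from MCF10A, an immortal but non-tumorigenic line of breast epithelium from human tissue, cultured in DFCI-1 medium under normal growth; it was extracted with TriReagent and labelled with biotin with no amplification step. On 2 Affymetrix U133 Plus 2.0 arrays the cells carried short hairpin RNAs against both CBL and CBLB (labelled dKD, for double knockdown), and 2 arrays held control cells, whose treatment the labels describe no further. CBL and CBLB encode ubiquitin ligases that send activated receptor tyrosine kinases for degradation. The labels do not say how many hairpins or clones were used, or whether the arrays of a group hold separate cultures, so p-values rest on the spread between 2 arrays that may differ only technically.

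CBL, on its brightest probe set 225231_at, read 31.1 and 29.0 on the arrays labelled dKD, against 125.9 and 84.4 on the control arrays (log2 change -1.37 ± 0.15 SE, limma adjusted p = 0.00139). With the CBL probe sets averaged the log2 change was -0.63 (adjusted p = 0.00369). CBLB, on 209682_at, read 94.8 and 99.5, against 64.3 and 70.05 (log2 change 0.45 ± 0.09, adjusted p = 0.0148), and lost its call without dKD replicate 1 (0.0861) or dKD replicate 2 (0.132). CBLB was thus not lower, against its label, and the groups are named below by what the arrays are labelled. Of 9 basal mammary markers 6 had a probe set of their own, all tested, with sums of 18023 and 16341 on the arrays labelled dKD and 27807 and 26315 on the control arrays. KRT5 and KRT14 were lower and LAMB3 higher. CDH1, EGFR and ITGA6 had log2 changes of 0.01, -0.08 and -0.19 and were not called. Of 4 measured leukocyte markers PTPRC and LYZ were below the brightness minimum, while CD14 read 976 and 1074, against 229 and 231; the list summed to 1004 and 1103, against 256 and 262. The 3 endothelial markers summed to 44.8 and 47.4, against 52.5 and 51.4, and the 4 fibroblast markers to 225 and 224, against 297 and 302, with DCN lower. The part of these markers in the results below was not tested.

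SnoRNA host genes are transcribed as long precursors whose introns are processed into small nucleolar RNAs. Box C/D snoRNAs (SNORD genes) guide methylation of ribosomal RNA, and box H/ACA snoRNAs (SNORA genes) guide pseudouridylation. The spliced host RNA that remains is often short-lived, because translation of its short reading frames exposes it to nonsense-mediated decay. NEAT1 is the architectural RNA of paraspeckles, nuclear bodies that retain proteins and RNAs, and MALAT1 is an abundant RNA of nuclear speckles, where splicing factors gather.

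Host transcripts are known for a terminal oligopyrimidine tract, a start with C followed by a run of C and T that also marks the mRNAs of ribosomal proteins. The windows are shown to set the annotated start sites of hosts whose signal rose beside those of SNHG5 and GAS5. The starts used in these cells were not measured, so a window without a tract does not show that the gene lacks one. Each holds 30 bases before and 30 bases from the annotated start, with the tract in capitals where a C followed by at least 4 bases that are C or T began within 5 bases of the start. All are from RefSeq, GRCh38.p14, and 7 of the 9 genes were matched (SNHG15 and NEAT1 were not).
SNHG1 (chr11:62855856-62855915, minus strand): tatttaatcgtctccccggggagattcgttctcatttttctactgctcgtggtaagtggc
SNHG7 (chr9:136728155-136728214, minus strand): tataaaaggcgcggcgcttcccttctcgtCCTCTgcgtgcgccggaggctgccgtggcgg
SNHG8 (chr4:118278732-118278791, plus strand): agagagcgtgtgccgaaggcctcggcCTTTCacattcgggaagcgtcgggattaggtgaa
SNHG12 (chr1:28581844-28581903, minus strand): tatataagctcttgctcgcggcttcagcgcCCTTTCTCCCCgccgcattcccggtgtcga
SNHG5 (chr6:85678704-85678763, minus strand): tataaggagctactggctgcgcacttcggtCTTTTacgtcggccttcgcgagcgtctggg
GAS5 (chr1:173869016-173869075, minus strand): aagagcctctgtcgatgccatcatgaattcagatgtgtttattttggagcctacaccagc
The tract of SNHG12 was 11 bases long and began at the annotated first base, and those of SNHG5, SNHG7 and SNHG8 were 5 bases long. That of SNHG5 also began at the first base. Those of SNHG7 and SNHG8 began before the start, at bases -1 and -4, so the annotated transcript of SNHG8 does not begin with the tract. SNHG1 and GAS5 had no such tract at their annotated starts. Such a tract was present in 21.1% of the 35116 promoters of the RefSeq table and in 5 of the 8 promoters of members. Besides the 4 hosts it was found in 1 of 2 promoters of MALAT1, which is not a snoRNA host, from base -4. Of the wider windows, 250 bases before to 50 after the start and searched on both strands, those of SNHG1, SNHG7 and 1 of 2 of MALAT1 held TATAAA (11.5% of all promoters), that of SNHG7 held CACGTG (7.26%), and those of GAS5 and SNHG5 held CCAAT (34.6%). None of the 8 member promoters, which include 2 of MALAT1, held TGATGNAAN, a form of the element that ATF4 and CHOP bind (3.61% of all promoters). These motifs do not contain one another, and a match is a description of the letters only.

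The single shared probe sets of SNHG1, SNHG8 and SNHG15, 1 of 2 of SNHG7 and 2 of 3 of SNHG12 rose on the arrays labelled dKD, while those of SNHG5 and GAS5 did not pass the test. Of all 22 shared probe sets, hosts and NEAT1 together, 20 reached the brightness minimum of 14.7, and 8 of these were called higher and none lower at an adjusted p under 0.05; 3 had a negative log2 change. Over all 27280 tested probe sets 13.1% were called, 7.89% higher and 5.20% lower. The median log2 change was 0.17 for the 20 and -0.0045 for all tested probe sets. Log2 changes are of intensity + 16 and understate those of dim probe sets. In bulk RNA, fewer cells of a kind and less RNA per cell cannot be told apart.

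The SNHG1 probe set, 224610_at, showed the largest rise among the shared probe sets. It lists SNHG1, a host long known for having no conserved reading frame, with 8 box C/D snoRNAs of its introns. Its intensity was 1380 and 1494 on the arrays labelled dKD, against 447 and 526 on the control arrays. Both arrays labelled dKD thus lay well above both control arrays. The log2 change was 1.54 ± 0.11 (SE, n = 2 each), a 2.90-fold rise in intensity + 16, with adjusted p = 0.000392 by limma. It was called under all 14 alternatives, with adjusted p of 8.29e-05 to 0.0346.

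SNHG7 carries the box H/ACA snoRNAs SNORA17A and SNORA17B. On its brighter probe set, 229050_s_at, it read 2254 and 2329 on the arrays labelled dKD, against 1024 and 1041 on the control arrays. The replicates of each group lay close together and the groups far apart. The log2 change was 1.14 ± 0.08 (SE), a 2.20-fold rise with limma adjusted p = 0.000546, and all 13 alternatives called it (adjusted p up to 0.0418). The other SNHG7 probe set, 1552729_at, read 29.9 and 26.1, against 29.0 and 27.9. On that dim probe set the groups overlapped (log2 change -0.02, limma adjusted p = 0.936); the difference between the probe sets was not tested.

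SNHG8 is listed with the H/ACA snoRNA SNORA24 on 225220_at. That probe set read 6587 and 6909 on the arrays labelled dKD, against 4377 and 4778 on the control arrays, with no overlap. The rise was 1.47-fold (log2 change 0.56 ± 0.09 SE, limma adjusted p = 0.0104). The call was lost without dKD replicate 1 (0.102) or dKD replicate 2 (0.154).

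SNHG12, which hosts the H/ACA snoRNAs SNORA16A, SNORA44 and SNORA61, had 3 probe sets. Both arrays labelled dKD lay above both control arrays on each, as they did for 28.4% of all tested probe sets. The brightest, 223773_s_at, read 1408 and 1373 on the arrays labelled dKD, against 851 and 981 on the control arrays (log2 change 0.60 ± 0.10 SE, 1.51-fold, limma adjusted p = 0.0110). The next, 223774_at, read 314 and 339, against 179 and 233 (log2 change 0.64 ± 0.13 SE, 1.55-fold, limma adjusted p = 0.0205). The rises of these 2 probe sets were of similar size. The third, 228990_at, read 64.2 and 65.8, against 54.2 and 63.9, and was not called (log2 change 0.11, limma adjusted p = 0.499). Without dKD replicate 1 the called pair had adjusted p = 0.123 and 0.138, without dKD replicate 2 0.145 and 0.214, and 223774_at had 0.0617 without control replicate 1.

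SNHG15 is listed with SNORA9 on 225699_at, which read 205 and 230 on the arrays labelled dKD, against 143 and 173 on the control arrays. The groups did not overlap, but this was the weakest of the calls. The rise was 1.34-fold (log2 change 0.42 ± 0.11 SE, limma adjusted p = 0.0497), and 7 of 14 alternatives kept the call, with adjusted p of 0.0267 to 0.338. Among those that lost it were the fits without dKD replicate 1 (0.172), dKD replicate 2 (0.338) and control replicate 1 (0.165).

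SNHG5 hosts the C/D snoRNAs SNORD50A and SNORD50B. Its probe set 225155_at read 11133 and 12025 on the arrays labelled dKD, against 10711 and 12040 on the control arrays. The groups overlapped (log2 change 0.03 ± 0.10 SE, limma adjusted p = 0.900).

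GAS5, found as a transcript that accumulates in growth-arrested cells, has 4 probe sets shared with 8 C/D snoRNAs. On the brightest, 224741_x_at, the arrays labelled dKD read 12123 and 12256, against 10188 and 11703 on the control arrays. On 228238_at they read 727 and 756, against 564 and 645. Both arrays labelled dKD lay above both control arrays on all 4, as they did for 28.4% of all tested probe sets. The log2 changes were 0.16 to 0.29, and none was called (limma adjusted p of 0.0948 for 228238_at and 0.278 to 0.341 for the rest). The probe set that names GAS5 alone, 1560402_at, was dim, near the brightness minimum, at 18.8 and 18.7, against 19.9 and 20.2 (log2 change -0.05 ± 0.08 SE, limma adjusted p = 0.733). Its sign was thus opposite to that of the shared probe sets, and none of these passed the test.

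**Figure D1:**
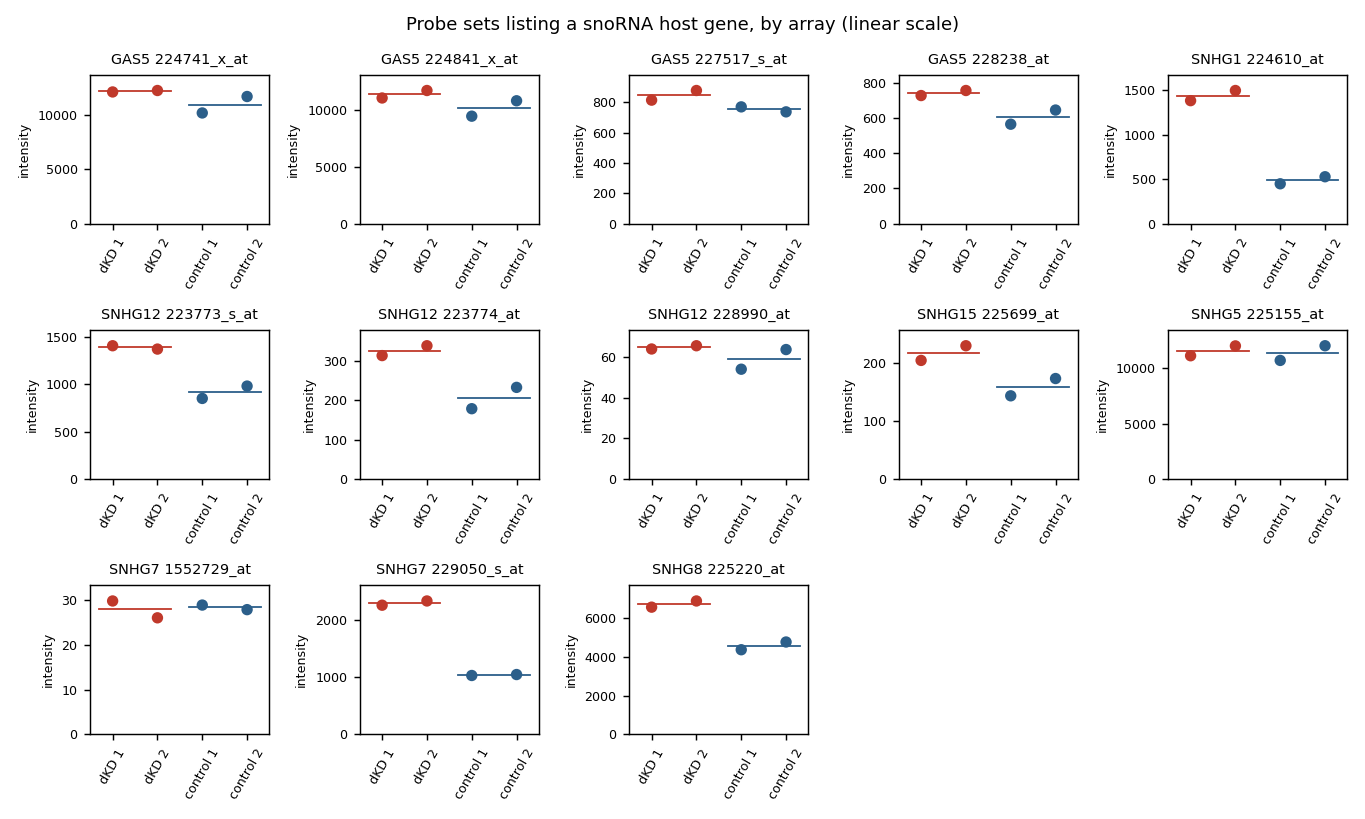
Intensity (linear axis from 0) of the 13 tested probe sets that list a snoRNA host gene together with its snoRNAs, for the arrays labelled dKD (red) and the control arrays (blue); lines are group means of 2 arrays. SNHG1 224610_at, at 1380 and 1494 against 447 and 526, and SNHG7 229050_s_at have the largest ratios between groups, while SNHG5 225155_at overlaps.

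NEAT1 gave a mixed picture by probe set. All 9 of its probe sets list it with MIR612, and 7 reached the brightness minimum. Of the 7, 2 were called higher, where 7.89% of all tested probe sets were, and 5 were not called. Of these 5, 3 had a positive and 2 a negative log2 change, and the groups overlapped on all 5.

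The called probe set 224565_at read 572 and 614 on the arrays labelled dKD, against 341 and 299 on the control arrays. It rose 1.82-fold (log2 change 0.86 ± 0.10 SE, limma adjusted p = 0.00290), and its call was lost without dKD replicate 1 (0.0600) or dKD replicate 2 (0.0897). The neighbouring identifier 224566_at read 290 and 366, against 192 and 179, and rose 1.697-fold (log2 change 0.76 ± 0.12 SE, limma adjusted p = 0.00968), with the call lost without dKD replicate 2 (0.120). On these 2 probe sets both arrays labelled dKD lay above both control arrays, as they did for 28.4% of all tested probe sets.

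The brighter NEAT1 probe sets showed no such separation. On 225239_at the arrays labelled dKD read 2371 and 2678, against 2537 and 2053 on the control arrays (log2 change 0.14 ± 0.12 SE, limma adjusted p = 0.508). On 234989_at they read 2081 and 2722, against 2870 and 1876 (log2 change 0.04 ± 0.21 SE, limma adjusted p = 0.938). Control replicate 1 was the highest of the 4 arrays on 234989_at and the second highest on 225239_at. On 227062_at, control replicate 1 was again highest, at 135, beside 70.1 for control replicate 2 and 78.4 and 111 for the arrays labelled dKD (log2 change -0.06 ± 0.25 SE). The NEAT1 locus makes a short and a long transcript that share their beginning; the sources used here do not say which of them each probe set reads.

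**Figure D2:**
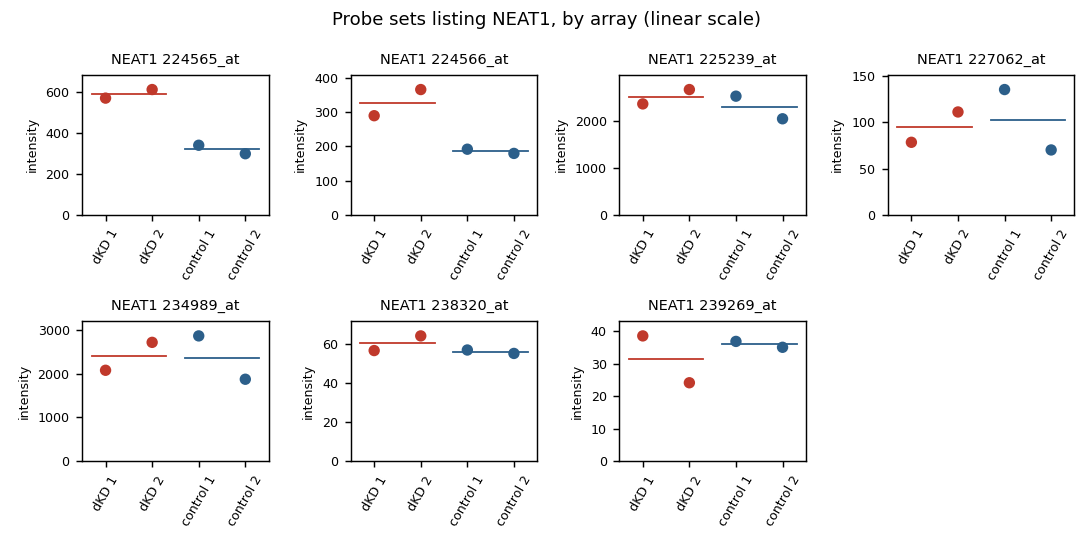
Intensity (linear axis from 0) of the 7 tested probe sets that list NEAT1, for the arrays labelled dKD (red) and the control arrays (blue); lines are group means of 2 arrays. The groups are apart on 224565_at and 224566_at and overlap on the other 5.

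MALAT1 had a negative log2 change on every tested probe set when all arrays were used, but the control arrays disagreed on its level. Of its 12 probe sets, which name no other gene, 9 reached the brightness minimum, with log2 changes between -1.58 and -0.04. Only 1 was called, lower, where 5.20% of all tested probe sets were called lower. With the GAS5 probe set, the 10 tested probe sets that name a member alone had a median of -0.67. On 7 of the 9, both arrays labelled dKD lay below both control arrays, as they did for 28.3% of all tested probe sets. Among the 7 are 223940_x_at, the called one, and 224568_x_at, with means of 13.96 and 13.17 on the arrays labelled dKD. These means lie below the brightness minimum, which both passed only through the control arrays. The filter thus favoured that order for them, and both also enter the median.

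The brightest, 224567_x_at, read 827 and 745 on the arrays labelled dKD, against 3467 and 1072 on the control arrays. Control replicate 1 was thus 3.23-fold above control replicate 2, a larger gap than that between control replicate 2 and either array labelled dKD. The log2 change was -1.28 ± 0.45 (SE, limma adjusted p = 0.108). Without control replicate 1 it was -0.44 with adjusted p = 0.0749, and without control replicate 2 it was -2.12 with adjusted p = 0.00293.

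The same picture held on 226675_s_at, with 156 and 126 on the arrays labelled dKD, against 965 and 208 (log2 change -1.58 ± 0.57 SE, limma adjusted p = 0.115), and on 1558678_s_at, with 141 and 133.2, against 639 and 166 (-1.17 ± 0.49, 0.169). Without control replicate 1 these had log2 changes of -0.51 and -0.25, and without control replicate 2 of -2.65 and -2.10. Control replicate 1 was more than 1.5-fold above control replicate 2 on 7 of the 9 tested probe sets. Each of these 7 is of a type (_s_at or _x_at) that can match several transcripts, as are 8 of the 9.

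The called probe set, 223940_x_at, read 16.9 and 11.03 on the arrays labelled dKD, against 82.3 and 33.8 on the control arrays. Its mean on the arrays labelled dKD lay below the brightness minimum, so the fall is given only for intensity + 16, where it was 2.35-fold (log2 change -1.23 ± 0.28 SE, limma adjusted p = 0.0311). Of 12 alternatives 8 called it, with adjusted p of 0.00691 to 0.269. It was called without control replicate 1, at a log2 change of -0.74, and without control replicate 2, at -1.72. The call was lost without dKD replicate 1 (0.162) or dKD replicate 2 (0.269).

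On 2 probe sets MALAT1 barely differed between arrays. The only one of the 12 that is of the plain type, 224559_at, read 73.5 and 73.0 on the arrays labelled dKD, against 73.5 and 78.3 on the control arrays (log2 change -0.04 ± 0.08 SE, limma adjusted p = 0.809). On 224558_s_at the arrays labelled dKD read 109 and 128, against 121 and 123 (log2 change -0.04 ± 0.10 SE, limma adjusted p = 0.860). The remaining 3 tested probe sets, 223577_x_at, 224568_x_at and 231735_s_at, had log2 changes of -0.39, -0.70 and -0.64 with limma adjusted p of 0.108 to 0.280. Of these, 224568_x_at read 14.5 and 11.8 on the arrays labelled dKD, against 48.3 and 19.01, so that it passed the brightness minimum only through the control arrays and its log2 change holds only for intensity + 16. Without control replicate 1 they were -0.02, -0.26 and -0.16, and without control replicate 2 -0.76, -1.14 and -1.13, then with adjusted p of 0.0153, 0.00949 and 0.0123.

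**Figure D3:**
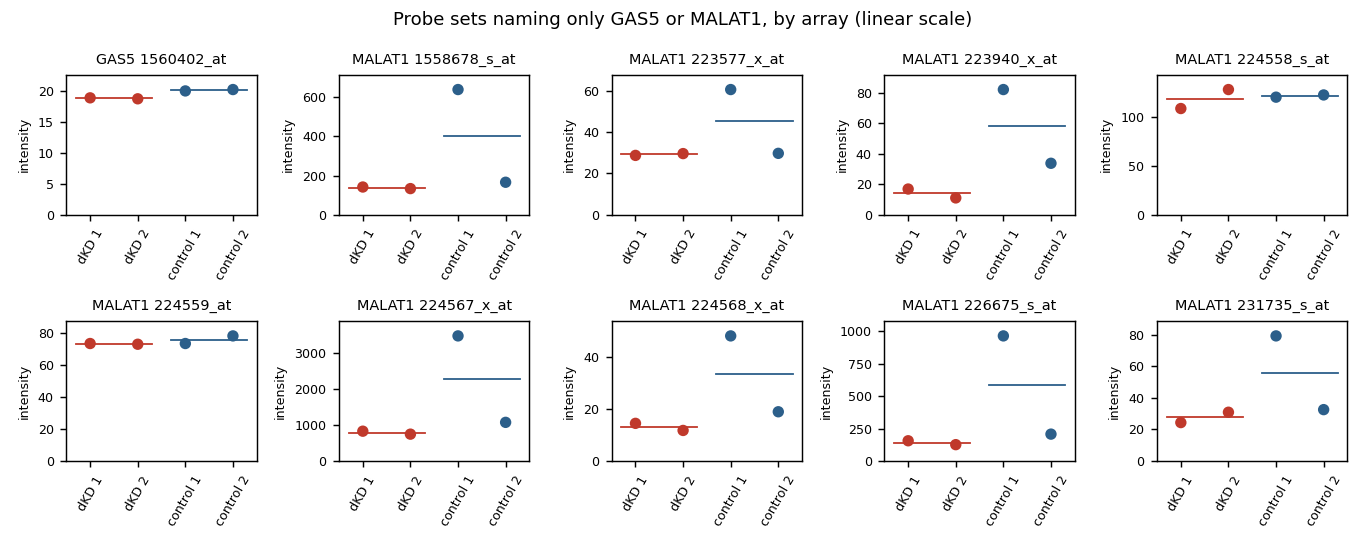
Intensity (linear axis from 0) of the 10 tested probe sets that name GAS5 or MALAT1 alone, for the arrays labelled dKD (red) and the control arrays (blue); lines are group means of 2 arrays. Control replicate 1 is far above the other 3 arrays on 7 of the 9 MALAT1 panels, at 3467 on 224567_x_at beside 1072, 827 and 745.

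The control arrays differed more on 7 of the 9 MALAT1 probe sets than on nearly all others. Over the 27280 tested probe sets the control arrays differed by a median of 0.11 on the log2 scale and the arrays labelled dKD by 0.0900. Control replicate 1 exceeded control replicate 2 by more than 1 on the log2 scale on 5 probe sets, and 3 of the 5 were MALAT1's, among them the largest gap, 2.13 on 226675_s_at. Of the 10 largest gaps in that direction, 5 were MALAT1's. On NEAT1 the gap reached 0.82, on 227062_at. On the probe sets of SNHG1, SNHG5, SNHG8, SNHG12 and SNHG15, control replicate 1 was the lower of the pair, with differences of -0.36 to -0.13. The signs were mixed for the other hosts. SNHG7 had -0.02 on 229050_s_at and 0.03 on 1552729_at. GAS5 had 0.06 on 227517_s_at, -0.20 to -0.19 on its other shared probe sets and -0.01 on 1560402_at.

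Measures of the whole arrays were close between arrays. Median intensities were 14.7 and 14.5 on the arrays labelled dKD, against 14.6 and 14.6 on the control arrays. The ratio of the 3′ to the 5′ control probe set, a sign of RNA integrity, was 1.68 and 1.62 for ACTB, against 1.62 on control replicate 1 and 1.57 on control replicate 2, and 1.10 and 1.08 for GAPDH, against 1.09 and 1.07. The control arrays correlated at r = 0.995 across probe sets, which are not independent replicates, and the arrays labelled dKD at 0.997. Between groups, control replicate 1 had the lower correlation with each array labelled dKD, at 0.9856 and 0.9830, beside 0.9868 and 0.9857 for control replicate 2. MALAT1 ends in a triple helix in place of a poly(A) tail, and the labels do not say how labelling was primed; its part in the gap was not tested.

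**Figure D4:**
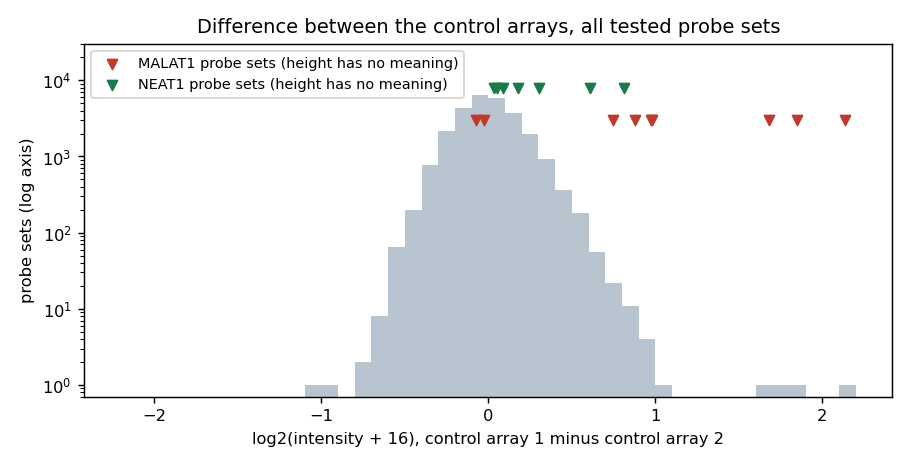
Histogram of log2(intensity + 16) on control replicate 1 minus control replicate 2 over the 27280 tested probe sets (log count axis), with triangles at the values of the MALAT1 (red) and NEAT1 (green) probe sets. MALAT1 holds 3 of the 5 probe sets beyond 1, up to 2.13.

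**Figure D5:**
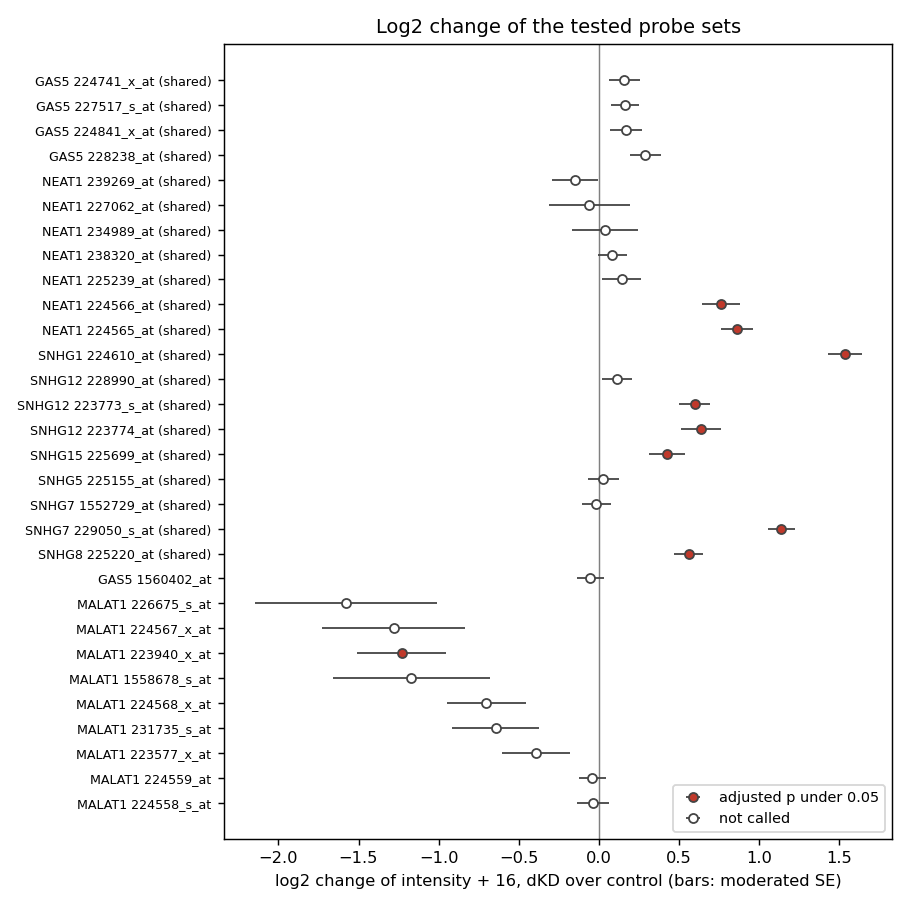
Log2 change of intensity + 16, arrays labelled dKD over control arrays, for the 30 tested probe sets, with moderated standard errors (n = 2 arrays per group); filled points passed an adjusted p under 0.05. The rises of the host loci reach 1.54 with errors near 0.10, while the falls of MALAT1 reach -1.58 with an error of 0.57.

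Genes that act with these RNAs were read at 1 probe set per gene, over 12951 tested genes, of which 9.41% were called higher and 6.60% lower, at a median log2 change of -0.01. Both arrays labelled dKD lay above both control arrays for 28.1% of these genes and below them for 29.3%. Of the other noncoding snoRNA hosts, 10 of 22 had a probe set of their own, 6 were tested and 3 were called higher, at a median log2 change of 0.37. SNHG19 read 2515 and 2730 on the arrays labelled dKD, against 1689 and 1884 (log2 change 0.55 ± 0.10 SE, limma adjusted p = 0.00969). SNHG17 read 393 and 426, against 233 and 290 (0.62 ± 0.12, 0.0119), and EPB41L4A-AS1 4195 and 4515, against 2774 and 3479 (0.48 ± 0.12, 0.0324). SNHG32, ZFAS1 and DANCR, named after their values were seen, had log2 changes of 0.06, 0.13 and 0.26 and were not called. All 3 calls were lost without dKD replicate 2 (0.0924 to 0.195), and that of EPB41L4A-AS1 also without dKD replicate 1 (0.106) or control replicate 1 (0.0876).

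Of 25 tested protein-coding genes that carry snoRNAs in their introns, 1 was called higher and 2 lower, where 2074 of all 12951 tested genes were called, at a median log2 change of -0.02. TAF1D, a subunit of an RNA polymerase I factor, had a log2 change of 0.44 (limma adjusted p = 0.0275), RCC1, which loads the GTPase RAN, of -0.36 (0.0335), and the ATP synthase subunit ATP5F1B of -0.30 (0.0494). Of 17 tested genes of proteins that form or assemble snoRNPs, none was called higher and 2 lower, at a median of -0.11: RUVBL1, an assembly ATPase (log2 change -0.43, limma adjusted p = 0.0173), and SHQ1, a chaperone of dyskerin (-0.36, 0.0386). Each of these 5 calls was lost without dKD replicate 2 (0.1005 to 0.269), and those of RCC1, ATP5F1B, RUVBL1 and SHQ1 also without dKD replicate 1 (0.106 to 0.263). Without control replicate 1, adjusted p was 0.0714 for TAF1D, 0.0629 for RCC1 and 0.0771 for ATP5F1B, and without control replicate 2 it was 0.0649, 0.0766 and 0.0951 for these and 0.103 for SHQ1.

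Of 12 tested factors of nonsense-mediated decay, 1 was called higher and none lower, at a median log2 change of 0.02. Such a count is close to the share over all tested genes, of which 9.41% were called higher and 6.60% lower. UPF2, the bridge between the helicase UPF1 and the exon junction complex, read 178 and 193, against 132.95 and 145 (log2 change 0.38 ± 0.09 SE, limma adjusted p = 0.0288). UPF1 itself, named after its value was seen, had a log2 change of -0.36 (limma adjusted p = 0.167). Of 8 mRNAs known as targets of this decay 2 were called, both higher, at a median of 0.17: the stress transcription factors ATF3 (log2 change 0.68 ± 0.10 SE, limma adjusted p = 0.00487) and ATF4 (0.39 ± 0.09, 0.0220). The calls of UPF2 and ATF4 were lost without dKD replicate 1 (0.112 and 0.108), dKD replicate 2 (0.230 and 0.191) or control replicate 1 (0.0840 and 0.0599). ATF3 had a log2 change of 0.06 on its remaining probe set when types that can match several transcripts were left out.

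Transcripts for proteins of the bodies that NEAT1 and MALAT1 occupy were lower where they were called. Protein was not measured. Of 15 tested genes of paraspeckle proteins 5 were called lower and none higher, at a median log2 change of -0.19. Of all tested genes 6.60% were called lower and 9.41% higher. CPSF6 (log2 change -0.45, limma adjusted p = 0.0126), TARDBP (-0.42, 0.0187), TAF15 (-0.42, 0.0238) and HNRNPK (-0.38, 0.0227) bind RNA. RBM14, named after its value was seen, completed the 5 (-0.31, 0.0495). NONO, SFPQ and PSPC1, also named after their values were seen, had log2 changes of -0.21, -0.19 and 0.29 and were not called. Of 21 tested genes of speckle and SR proteins 3 were called lower and none higher, at a median of -0.15: the splicing factors SRSF10 (-0.50, 0.00842) and SRSF3 (-0.39, 0.0220), and SRRM1 (-0.35, 0.0483). Without dKD replicate 1 or dKD replicate 2 no gene of the 8 lists outside the members was called lower, against 12 with all arrays, and 7 were without control replicate 1 and 8 without control replicate 2. Without types that can match several transcripts, CPSF6 had a log2 change of 0.15, SRSF10 of -0.10 and SRSF3 of -0.07, and with the probe sets of each gene averaged TARDBP had -0.07 and TAF15 -0.12, none of them called.

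Of 15 other long noncoding RNAs tested, 1 was called higher and none lower, at a median log2 change of 0.12. That is no larger a share than over all tested genes, of which 9.41% were called higher and 6.60% lower. The called gene was MIR31HG, the host of miR-31, at 151 and 161 on the arrays labelled dKD, against 77.7 and 99.8. Its log2 change was 0.72 ± 0.12 SE (limma adjusted p = 0.00669), and the call was lost without dKD replicate 2. Over the 4 arrays, log2 profiles centred on their own mean were compared with that of MALAT1 on 224567_x_at. The nearest were those of BCL11B, AHNAK2 and COL4A1, at Euclidean distances of 0.737, 0.781 and 0.828. BCL11B read 15.4 and 15.2 on the arrays labelled dKD, against 66.8 and 35.1. It was picked for its likeness to MALAT1 on these arrays, so its peak on control replicate 1 is not a separate observation. The nearest to the flat profile of GAS5 1560402_at were HSCB, ATP5MC2P1 and DTWD2, at distances of 0.00523 to 0.00762.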

How the data were processed

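The 4 arrays were grouped by their titles. The deposited values are probe set intensities on a linear scale, judging by the values; the sources used here do not give the authors' summarisation or normalization. Of 54675 probe sets, 62 control probe sets were left out, 41091 named 1 gene, 1801 several and 11721 none in the platform annotation. Symbols were updated by gene identifier through the RefSeq gene table (GRCh38.p14; 41037 matched).

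Probe sets with a mean over the 4 arrays of at least 14.7, the median of all, were tested on log2(intensity + 16) with limma 3.58.1 in R 4.3.3 (lmFit, eBayes, two-sided, no covariate), with Benjamini-Hochberg adjustment over all of them. Genes were tested likewise at their brightest probe set that names 1 gene. Standard errors are moderated. The number of arrays limits the precision.

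The members, lists and tests were chosen with earlier results of these data known. Genes named are the members, the targeted genes and, per list, up to 4 called genes with the smallest p. The tests were run on simulated data in which 200 probe sets or genes changed. Of log2 changes of 0.5 in size, 13.4% were recovered for probe sets and 35.8% for genes, and of those of 1, 91% and 100%. In the real data many more were called, 3570 probe sets and 2074 genes. The adjusted threshold was therefore less strict there than in the simulation, and these rates do not carry over. A probe set that was not called may still have changed. Alternatives were other constants, filters, normalizations and priors, a replicate block, single arrays left out, and probe set choices.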

Additional observations from a re-analysis of the deposited data

How the results depend on the processing

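Among probe sets that name GAS5 or MALAT1 alone, the 1 called lower was not called with a constant of 64 or without a brightness filter (0 each). With a mean intensity of at least 100 or without _s_at and _x_at probe sets the count was also 0, since these settings remove that probe set before the test. The count ran from 0 to 7 when 1 array was left out, with 7 without control replicate 2. Of the shared probe sets, the 8 called higher became 5 without a brightness filter and 2 to 8 when 1 array was left out (3 without dKD replicate 1, 2 without dKD replicate 2). Leaving out a dKD array leaves that lone array to vary like the control pair: over all probe sets 233 were then called higher and 49 lower without dKD replicate 1, and 142 and 42 without dKD replicate 2, against 2152 and 1418. The counts without a filter were 975 and 585. At gene level MALAT1 had a log2 change of -1.28 with limma adjusted p = 0.0876. It was called at the same log2 change with a mean intensity of at least 100 (0.0473) and with the replicate block (0.0445). Without _s_at and _x_at probe sets it had a log2 change of -0.04 (0.826), and with its probe sets averaged of -0.79 (0.0753), not called. With 1 array left out the log2 change ran from -2.12 to -0.44, and MALAT1 was called without control replicate 1 (0.0455) or control replicate 2 (0.000471). CBLB had log2 changes of 0.40 to 0.50 with 1 array left out. Of the other lists, 8 genes were called higher and 12 lower. These became 5 and 6 with a constant of 1, and 5 and 5 without _s_at and _x_at probe sets. With 1 array left out they ran from 1 to 9 and from 0 to 8. The log2 change of CPSF6, -0.45, was 0.15 without _s_at and _x_at probe sets; the cause was not tested. The labels do not say whether same-numbered arrays were handled together. The differences of replicate 1 minus replicate 2 in the 2 groups correlated at r = 0.185 across 27280 tested probe sets, which are not independent replicates. With the replicate block, 8 shared probe sets were called higher and 1 MALAT1 probe set lower. Over the single probe sets of the members and the named genes of the other lists, which leaves out MALAT1 and GAS5 at gene level, CBL and CBLB, 672 values were computed under the alternatives. Of these 568 kept their side of the threshold, 97 lost a call, 6 gained one and 1 called value changed sign.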

Other observations

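Beside MALAT1, the 10 probe sets that read highest on control replicate 1 relative to control replicate 2 included 1 with no gene name, 234623_x_at, and 1 each of THBS1, EGFR, ANKRD11 and ITGA3. The unnamed probe set read 85.5 and 49.6 on the arrays labelled dKD, against 342 and 90.1 on the control arrays. THBS1, a matrix glycoprotein, read 33.9 and 23.4 on 201110_s_at, against 239 and 106. EGFR, a receptor that CBL proteins act on, read 262 and 223 on 201983_s_at, against 421 and 213.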
